A study of Mus musculus with 2 samples.

Results

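The clustered replication-dependent histone genes encode the core histones H2A, H2B, H3 and H4 and the linker histone H1 that package newly made DNA. They were taken as the protein-coding genes whose symbol in the GENCODE M21 annotation begins with Hist1h, Hist2h, Hist3h or Hist4h. The RNA-seq tables held 59 of them among 39695 gene entries, 6 of class H1, 18 of H2A, 15 of H2B, 7 of H3 and 13 of H4. GENCODE M21 lists 67 such genes, and the other 8, most of them H3 genes of the Hist1 cluster (Hist1h3d, Hist1h3f, Hist1h3g, Hist1h3h and Hist1h3i, with Hist1h2bh, Hist1h2bm and Hist2h2bb), were not analysed here. On the mouse genome GRCm38 (mm10), 47 members lie in the Hist1 cluster on chromosome 13 between positions 21715763 and 23934851, 9 in the Hist2 cluster on chromosome 3 between 96219865 and 96269141, 2 in Hist3 on chromosome 11, and 1, Hist4h4, on chromosome 6.

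The study compared whole testes of 9-day-old (P9) mice that had lost BCAS2, a component of the Prp19 splicing complex, in their germ cells with testes of controls. Both groups are labelled C57BL/6 in strain, although the methods describe a line kept on a mixed background with 129. Control males were Bcas2F/-, with a floxed and a deleted Bcas2 allele and no Cre. The mutants were Bcas2F/-;Vasa-Cre males, in which Cre under the Vasa promoter, active in germ cells from before birth, removes the floxed allele. The controls therefore also had a single intact allele, and somatic cells of the testis kept theirs in both groups. There was 1 library per genotype, and the number of mice behind each is not given in the sources used here. No difference has a replicate check, no p-value is given for any comparison, and the intervals cover counting error only.

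Replication-dependent histone mRNAs are made in S phase and, unlike other mRNAs of animal cells, usually carry no poly(A) tail. Their 3′ end is a short stem-loop that is bound by SLBP, and the U7 snRNP directs the cut just after it. Most of these genes have no intron, so their transcripts need no splicing. Replacement histones such as H3.3 and H2A.Z come from genes outside the clusters, have introns and poly(A) tails, and are made throughout the cell cycle. In the testis, dividing spermatogonia and cells in premeiotic S phase use the clustered genes, and a few members (Hist1h1t, Hist1h2aa and Hist1h2ba) are known as testis-specific forms of later germ cells.

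The sequence features were those of this family. A stem-loop of 6 paired bases around a loop of 4 was found in the transcript model of 41 of the 59 members (69.5%) and of 113 of 21884 other protein-coding genes (0.516%). It began 21 to 58 bases after the stop codon, with a median of 31. All models of 54 members (91.5%) had a single exon, against 5.80% of the other genes. The stem-loop of members described below is shown with 5 bases on either side and the paired bases and loop in capitals, all from the 3′ untranslated region of GENCODE M21 models on chromosome 13, because it is the mark that sets these transcripts apart from polyadenylated mRNA.
Hist1h1c: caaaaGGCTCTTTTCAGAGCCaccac
Hist1h2ag: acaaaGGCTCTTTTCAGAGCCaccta
Hist1h2bj: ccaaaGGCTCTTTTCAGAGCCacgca
Hist1h2bk: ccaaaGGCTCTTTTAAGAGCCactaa
Hist1h3a: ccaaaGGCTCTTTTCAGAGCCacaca
Hist1h4d: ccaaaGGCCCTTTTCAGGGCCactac
Hist1h4i: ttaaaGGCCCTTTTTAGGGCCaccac
These 26-base sites lie at chr13:23739507-23739532 on the plus strand for Hist1h1c, chr13:22042478-22042503 on the minus strand for Hist1h2ag, chr13:22043633-22043658 (plus) for Hist1h2bj, chr13:22036295-22036320 (plus) for Hist1h2bk, chr13:23761885-23761910 (minus) for Hist1h3a, chr13:23581945-23581970 (plus) for Hist1h4d and chr13:22040961-22040986 (minus) for Hist1h4i. The classes differed in the stem. The form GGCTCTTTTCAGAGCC was found in 23 members, 3 of class H1, 10 of H2A, 6 of H2B and 4 of H3. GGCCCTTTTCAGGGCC was found in 7 members, all of class H4, and none of the 12 H4 members with a stem-loop had the first form.

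Hist1h2ap, an H2A gene and by far the most abundant member here, had a feature before its stem-loop that few members share. The last 30 bases up to the end of its stem-loop (chr13:21833029-21833058, minus strand) hold a run of 12 A, shown in capitals.
Hist1h2ap: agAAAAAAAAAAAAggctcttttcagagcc
Hist1h2ao has the same 12-base run. Among the members other than Hist1h2ap the longest run of A in the transcript model had a median of 4 bases, and only Hist1h2ao, Hist1h2ac (15 bases) and Hist1h2be (11 bases) reached 10. The runs of Hist1h2ac and Hist1h2be lie far past the stem-loop, so of these only Hist1h2ao has its run just before it. A part of the 12-base run in the value of Hist1h2ap was not tested.

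Promoters were read from the RefSeq windows on GRCm38.p6, from 250 bases before to 50 after each start site. A window on the gene's own strand was matched for 54 of the 59 members. CCAAT, the site of the NF-Y factor, was present on either strand in 45 of them (83.3%), against 37.9% of 27025 promoters of all genes. It was in all matched members of classes H1 (5), H2A (18), H2B (13) and H3 (6) and in 3 of 12 of class H4. TATAAA was present on either strand in 31 members (57.4%), against 14.2% of all promoters, with 8 of 12 in class H4. The windows of Hist1h2ap, Hist1h2bk and Hist1h4d, 1 member lower and 2 higher in the mutant library, are shown with both motifs in capitals (on the opposite strand they read ATTGG and TTTATA).
Hist1h2ap: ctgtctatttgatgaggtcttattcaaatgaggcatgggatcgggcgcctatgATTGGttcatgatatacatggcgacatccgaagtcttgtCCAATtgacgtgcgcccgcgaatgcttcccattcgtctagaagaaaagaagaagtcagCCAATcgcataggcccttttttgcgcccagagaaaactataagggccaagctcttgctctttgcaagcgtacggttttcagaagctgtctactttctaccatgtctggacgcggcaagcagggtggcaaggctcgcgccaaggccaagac
Hist1h2bk: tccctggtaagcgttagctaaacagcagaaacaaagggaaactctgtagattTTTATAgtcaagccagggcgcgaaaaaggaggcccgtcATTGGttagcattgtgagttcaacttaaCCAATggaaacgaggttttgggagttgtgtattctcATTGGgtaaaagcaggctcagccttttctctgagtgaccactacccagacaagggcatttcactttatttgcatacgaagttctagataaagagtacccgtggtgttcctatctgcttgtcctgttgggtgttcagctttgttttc
Hist1h4d: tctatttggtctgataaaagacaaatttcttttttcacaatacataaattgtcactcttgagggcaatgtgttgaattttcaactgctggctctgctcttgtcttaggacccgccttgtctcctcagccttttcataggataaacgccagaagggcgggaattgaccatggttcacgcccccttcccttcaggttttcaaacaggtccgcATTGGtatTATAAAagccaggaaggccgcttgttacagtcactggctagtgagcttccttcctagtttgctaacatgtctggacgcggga
The windows lie at chr13:21833426-21833725 on the minus strand for Hist1h2ap, chr13:22035571-22035870 on the plus strand for Hist1h2bk and chr13:23581318-23581617 on the plus strand for Hist1h4d. Hist1h2ap held CCAAT 3 times and no TATAAA. Hist1h2bk held CCAAT 3 times and TATAAA once, and Hist1h4d held each once. The TATAAA of Hist1h2bk was on the opposite strand at position -198 from the start, and that of Hist1h4d on its own strand at -32. The first 200 bases of the Hist1h2ap window were identical to the last part of the Hist1h2ao window. The Hist1h2ao window ends there, so the 2 windows do not show whether the match goes further. Windows of neighbouring genes that point away from each other can overlap, so a site can be counted for both. A match describes these letters only.

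Most clustered histone genes were near the floor of the measurement. The study's text speaks of isolated mRNA, and whether it was selected by its poly(A) tail is not given in the sources used here. Such a selection loses transcripts without a tail, and its part in the low values was not tested. The deposited values are RPKM, the reads counted on a gene scaled to gene length and to the size of the library. The library sizes behind them came to 19918750 reads (control) and 19331687 reads (Bcas2F/-;Vasa-Cre). Of the 59 members, 9 were listed at 0 in both libraries, and 41, those 9 included, were under 1 RPKM in both. The members at 0 were Hist2h2aa1, Hist2h2aa2, Hist2h2ab, Hist1h2bq, Hist1h2br, Hist2h3b, Hist2h3c1, Hist1h4b and Hist1h4m. Hist2h2aa1 and Hist2h2aa2, like Hist1h2bq and Hist1h2br, are near-identical copies, and how reads that match several copies were counted is not given in the sources used here. The members together had 2499 and 2204 reads, of which 945 and 567 belonged to Hist1h2ap, and 18 members above 0 had under 10 reads when both libraries were added. Of the 59, 37 have a near-identical copy among the other members, with at least 95% identity over 250 bases or more. Reads were recovered from the RPKM values at the annotated gene length for 24 members and at the nearest length that gave whole reads for 26, and are approximate for the latter.

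**Figure D1:**
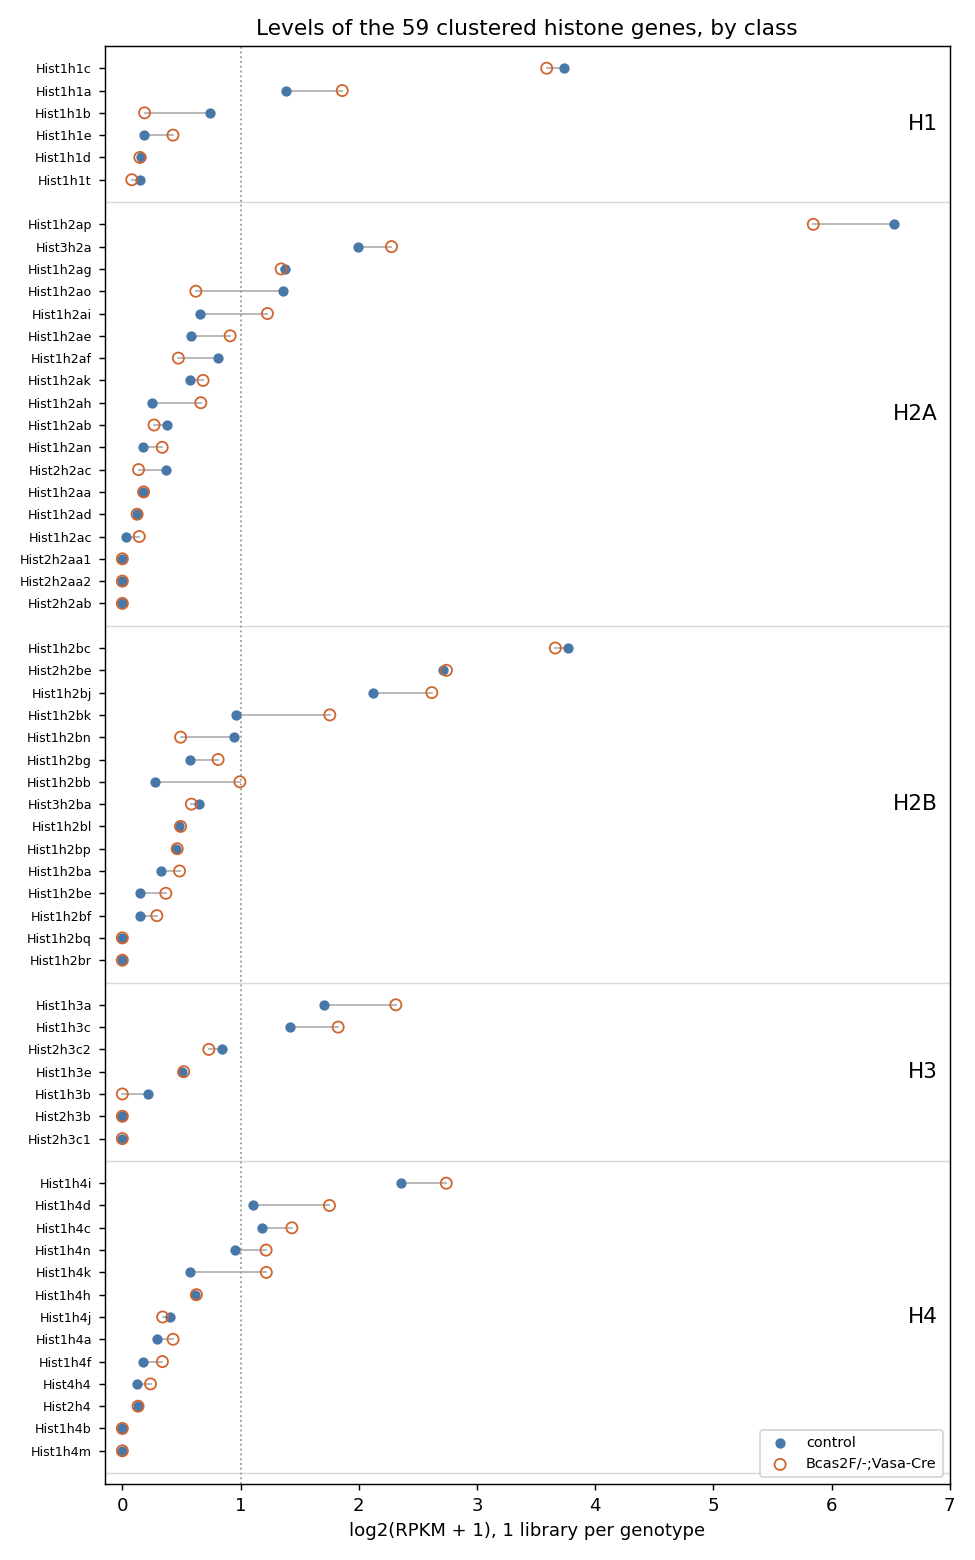
Level of each of the 59 clustered histone genes on the scale of log2(RPKM + 1), grouped by class and ordered by mean RPKM within a class. Filled points are the control library, open circles the Bcas2F/-;Vasa-Cre library, and the dotted line marks 1 RPKM. Hist1h2ap stands apart at 91.4 and 56.5 RPKM, and 41 members are under 1 RPKM in both libraries.

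Before the members are compared, the target and the makeup of the testes are given. Bcas2 had 39.5 RPKM in the control and 25.7 in the Bcas2F/-;Vasa-Cre library, a log2 ratio of RPKM + 1 of -0.60. All 8 germ cell markers were lower in the mutant library, with a summed RPKM of 613 and 454 and Ddx4 at 96.9 and 81.4. The 4 markers of meiotic prophase were also lower, with summed RPKM of 84.1 and 54.2. The 5 Sertoli cell markers above 0 were higher, summed RPKM 833 and 940, and Rhox5 was listed at 0 in both. In these bulk libraries, fewer cells of a type and less RNA per cell cannot be told apart. Of 5 Leydig markers 3 were higher, including Cyp17a1 at 94.8 and 152 RPKM. The 4 neutrophil markers had a summed 25.8 and 3.12 RPKM, and of 5 red cell markers 4 were lower. The part of these differences in the values of histone genes was not tested.

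The change of a gene is given as the log2 ratio of RPKM + 1 in Bcas2F/-;Vasa-Cre over control, and a gene is counted as past 1.5-fold when it passes that ratio in either direction with a mean of at least 1 RPKM. The minimum mean was met by 14831 genes, with a median log2 ratio of 0.02. Of them 1.69% were past 1.5-fold lower and 1.57% past 1.5-fold higher. Of the 16 members with a mean of at least 1 RPKM, 2 were past 1.5-fold lower, both of class H2A, and 3 past 1.5-fold higher, 1 each of classes H2B, H3 and H4. The 16 had a median log2 ratio of 0.28, and 11 were higher at any size, beside 53.7% of all genes tested. Of the 16, 3 (Hist1h2ao, Hist1h2bk and Hist1h4n) had 1 RPKM or more in only 1 library, and the other 13 comprised 9 higher and 4 lower. Most of the 16 were low, with 12 between 1 and 5 RPKM. Protein-coding genes of that range were past 1.5-fold lower in 2.76% and higher in 1.18% of cases, against 1 and 3 of the 12 members. The range was matched on RPKM, not on reads or gene length. A short gene has fewer reads at the same RPKM and so a larger counting error, and no comparison at equal reads was made. Over all 50 members above 0 in either library, 34 had a higher RPKM in the mutant library, beside 52.2% of protein-coding genes above 0. Hist1h2bb (0.214 and 0.993 RPKM, about 2 and 9 reads) and Hist1h4k (0.483 and 1.33 RPKM, 3 and 8 reads) would also be past 1.5-fold higher without the filter on the mean. The counting interval lay below 0 in 3 of the 50 members and above 0 in 4. By reads, which do not include the difference in library size, 26 had more, 17 fewer and 7 the same number.

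**Figure D2:**
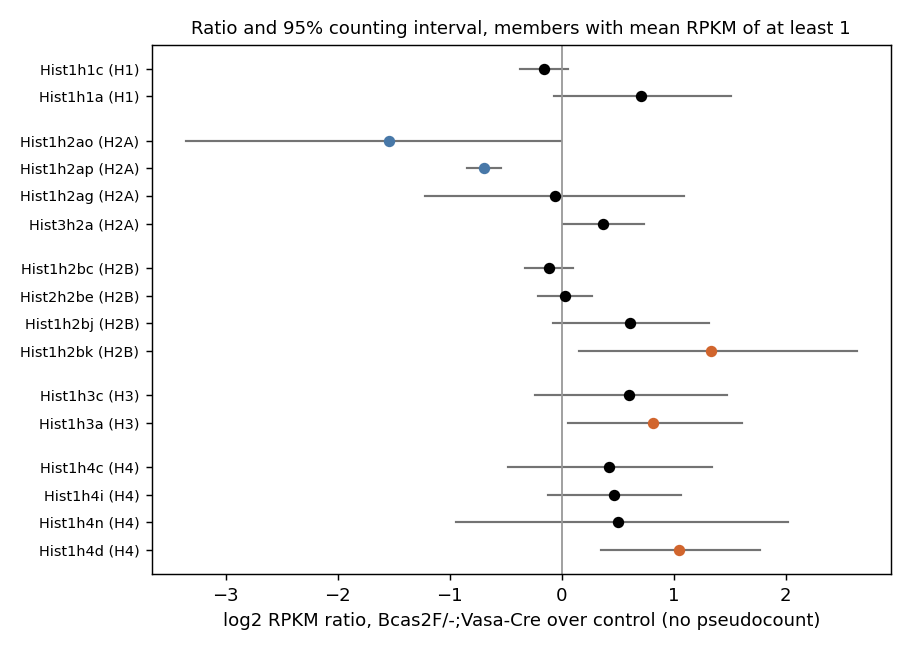
Log2 RPKM ratio, without a pseudocount, of the 16 members with a mean of at least 1 RPKM. Lines are 95% Clopper-Pearson intervals, computed from the reads of both libraries and covering counting error only, and blue and orange points are past 1.5-fold lower and higher on the RPKM + 1 scale. The interval of Hist1h2ap, from -0.85 to -0.54, is the narrowest of the members past 1.5-fold.

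Class H2A held the largest difference in summed RPKM, and it was that of 1 gene. The summed RPKM of its 18 members was 101 in the control and 67.1 in the Bcas2F/-;Vasa-Cre library, a log2 ratio of -0.59. Hist1h2ap alone made up 90.5% of the first sum and 84.2% of the second. Without it the class summed to 9.61 and 10.6 RPKM, a log2 ratio of 0.14. The reads of these other members, about 182 and 215, gave an interval of the read ratio from -0.01 to 0.58, which holds 0. The class was thus lower with Hist1h2ap, and without it did not differ beyond its counting error.

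Hist1h2ap (chromosome 13, 21833026 to 21833507, minus strand, a single exon) had 91.4 RPKM in the control and 56.5 RPKM in the Bcas2F/-;Vasa-Cre library. These values correspond to about 945 and 567 reads, and the log2 ratio was -0.68 on the RPKM + 1 scale and -0.69 without the pseudocount, with a counting interval from -0.85 to -0.54. With the fewest reads that give the 2 values at a gene length between 0.5 and 1.5 times the annotated one, 630 and 378, the interval ran from -0.88 to -0.51. Among 1635 protein-coding genes with a mean between 50 and 110 RPKM, 5, Hist1h2ap included, had a ratio this low (0.306%). Hist1h2ao, the other H2A member past 1.5-fold lower, had 1.57 and 0.539 RPKM from 15 and 5 reads, and a log2 ratio of -0.74. Its interval without the pseudocount, from -3.36 to -0.01, came close to 0. The transcript models of Hist1h2ao and Hist1h2ap are identical over 452 aligned bases, so reads from that stretch cannot be told apart by sequence, although the deposited values of the 2 genes are far apart. Added together they had 93.0 and 57.1 RPKM, from 960 and 572 reads, with a log2 RPKM ratio of -0.70. At 95% identity or more over at least 250 bases Hist1h2ap has 8 copies, Hist1h2ao and the pseudogene Hist1h2aj among them, of which 4 were higher and 4 lower in the mutant library, with at most 15 reads in a library. After Hist1h2ao the closest was Hist1h2aj, 99.1% identical over 341 bases, at 0.690 and 0.426 RPKM. Hist1h2ai and Hist1h2ah, 99.0% identical each, had 0.579 and 1.34 RPKM and 0.189 and 0.585 RPKM, and Hist1h2af, 98.2% identical, had 0.755 and 0.389 RPKM. These low copies thus showed no common direction.

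The other H2A members were low. Hist3h2a, in a small cluster on chromosome 11, had 2.98 and 3.85 RPKM, from about 118 and 148 reads, with a log2 ratio of 0.29 and a counting interval that nearly reached 0 (0.01 to 0.73). Its model overlaps that of Trim17, and the strand setting of the counting is not given in the sources used here. Hist1h2ag had 1.60 and 1.54 RPKM from about 15 and 14 reads, and a log2 ratio of -0.03. The 11 remaining H2A members above 0 had a mean under 1 RPKM. Hist1h2aa, a testis-specific H2A, had 0.129 and 0.133 RPKM from 1 read in each library.

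Class H2B summed to 25.9 RPKM in the control and 29.2 RPKM in the Bcas2F/-;Vasa-Cre library, a log2 ratio of 0.17. Its reads, about 737 and 740, gave an interval from -0.10 to 0.20. Hist1h2bc was the highest member at 12.6 and 11.7 RPKM, a log2 ratio of -0.10 and the largest fall among the members of the class with a mean of at least 1 RPKM. Below that mean, Hist1h2bn had 0.922 and 0.407 RPKM, which rest on 7 and 3 reads and give -0.45 on the log2 scale. Hist2h2be followed at 5.56 and 5.69 RPKM, a log2 ratio of 0.03. In both, the 2 libraries differed by less than their counting error. Hist1h2bk was the member past 1.5-fold higher, at 0.943 and 2.38 RPKM from about 9 and 22 reads. Its log2 ratio was 0.80, with a counting interval from 0.16 to 2.64 without the pseudocount. Hist1h2bj had 3.36 and 5.14 RPKM from 31 and 46 reads, and a log2 ratio of 0.49. Hist1h2ba, a testis-specific H2B, had 0.258 and 0.399 RPKM from about 2 and 3 reads.

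Class H3 summed to 5.30 and 7.61 RPKM, a log2 ratio of 0.52, from 70 and 92 reads with an interval of the read ratio from -0.03 to 0.91. Hist1h3a, the most abundant member, was past 1.5-fold higher at 2.26 and 3.97 RPKM, from 24 and 41 reads, with a log2 ratio of 0.61 and an interval from 0.05 to 1.61. Hist1h3c had 1.67 and 2.55 RPKM from 21 and 31 reads, and a log2 ratio of 0.41. The other H3 members were under 1 RPKM in both libraries, and Hist1h3b had 0.162 and 0 RPKM from 2 and 0 reads.

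Class H4 had the largest share of members higher in the mutant library. Of its 13 members 10 had a higher RPKM in the Bcas2F/-;Vasa-Cre library, 1 lower (Hist1h4j) and 2 were at 0, and 8 had more reads, 1 fewer and 2 the same number. The sum was 9.34 and 14.1 RPKM, a log2 ratio of 0.60. It rested on 123 and 185 reads with an interval of the read ratio from 0.30 to 0.97, and on 106 and 154 with the fewest reads that the values allow, with an interval from 0.22 to 0.95. Hist1h4i was the highest member, at 4.11 and 5.68 RPKM and a log2 ratio of 0.39. Hist1h4d was past 1.5-fold higher, at 1.15 and 2.37 RPKM, a log2 ratio of 0.65. Its values stand in a ratio of whole reads of about 27 and 54, with a counting interval from 0.35 to 1.77, or from 0.10 to 2.04 with the fewest reads, 15 and 30. Hist1h4c had 1.27 and 1.70 RPKM, a log2 ratio of 0.25 and the smallest rise among the 4 members of the class that passed the filter, and Hist1h4n had 0.934 and 1.32 RPKM.

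Class H1 did not differ beyond its counting error. It summed to 14.9 and 14.3 RPKM, a log2 ratio of -0.06, from 442 and 405 reads with an interval of the read ratio from -0.28 to 0.11. Hist1h1c, the most abundant linker histone of the clusters, had 12.3 and 11.0 RPKM from 382 and 333 reads, and a log2 ratio of -0.14. Hist1h1a, known from early spermatogonia, had 1.61 and 2.63 RPKM from about 24 and 38 reads, and a log2 ratio of 0.47. Hist1h1t, the testis linker histone of spermatocytes, had 0.110 and 0.0569 RPKM from 2 and 1 reads, so a difference in it was not detectable at this depth. Hist1h1b had 0.676 and 0.139 RPKM from 10 and 2 reads, with a counting interval from -5.51 to -0.05.

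**Figure D3:**
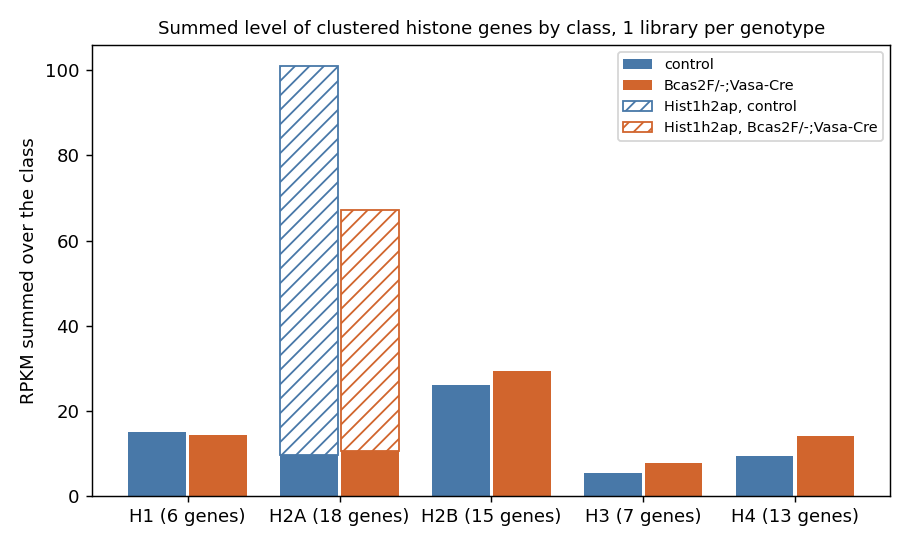
RPKM summed over the members of each class, with 1 bar per library and no error bar because each genotype had 1 library. The hatched part of the H2A bars is Hist1h2ap, 91.4 and 56.5 RPKM, and the solid part is the other 17 H2A members, 9.61 and 10.6 RPKM.

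Over all 59 members the summed RPKM was 157 in the control and 132 in the Bcas2F/-;Vasa-Cre library, a log2 ratio of -0.24. Without Hist1h2ap it was 65.1 and 75.9 RPKM, a log2 ratio of 0.22. Hist1h2ap held 58.4% of the control and 42.7% of the mutant total, so the direction of the total was set by this gene. The interval of the read ratio of the 58 other members was 0.02 to 0.22. By cluster, the members on chromosome 3 summed to 6.73 and 6.55 RPKM and those of Hist3 to 3.54 and 4.35 RPKM.

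Pairs of H2A and H2B genes often share a promoter region and point away from each other. Here 12 such pairs had their annotated starts 176 to 306 bases apart. Both genes were higher in the mutant library in 6 pairs, the genes went in opposite directions in 4, 1 gene was at 0 in 2, and in 0 pairs were both lower, while 52.2% of all protein-coding genes above 0 were higher. By reads, both genes had more in 2 pairs and both had fewer in 1. In 4 of the 6 pairs with both RPKM values higher, 1 gene had the same number of reads in each library and was higher through the library sizes alone. Hist1h2ah and Hist1h2bk, 302 bases apart, were both higher, with 0.189 and 0.585 RPKM and 0.943 and 2.38 RPKM. Hist1h2ap and its partner Hist1h2br, 236 bases apart, had 91.4 and 56.5 RPKM and 0 in both, and Hist1h2ao and Hist1h2bq, 268 bases apart, repeated this with 1.57 and 0.539 RPKM and 0 in both. The models of Hist1h2br and Hist1h2bq are identical over 1254 bases, and how reads matching several genes were counted is not given in the sources used here, so their 0 does not show that they were silent.

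The members were sorted by how their transcript model ends, since a model that runs on past the stem-loop can also collect reads of polyadenylated transcripts. In 21 members the model ends within 100 bases of the stem-loop, in 20 it runs further, and 18 models hold no stem-loop, of which 12 end within 20 bases of the stop codon. A polyadenylation signal was present near the end of 12 of the 20 models that run on and of 1 of the 21 that end at the stem-loop. Median RPKM was 0.298 and 0.380 for models that end at the stem-loop, 0.372 and 0.390 for those that run on, and 0.439 and 0.403 for those without one. The RPKM of the 3 kinds was similar in the medians, while the highest member of each differed, Hist1h2ap at a mean of 74.0, Hist1h1c at 11.7 and Hist1h2bc at 12.1 RPKM. RPKM divides by gene length, so these medians do not show which kind collected more reads. In the control, Hist1h1d had 0.118 RPKM from about 18 reads with an annotated length of 7425 bases. Hist1h2ag had 1.60 RPKM from about 15 reads with 485 bases.

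Replacement histones summed to far more RPKM than the clustered members, though not in class H2B, and their sum was close between the libraries. The 19 genes listed summed to 2159 and 2072 RPKM, 11 had a mean of at least 1 RPKM, and of these 10 were lower, 1 higher and 0 past 1.5-fold in either direction, with a median log2 ratio of -0.16. H3f3b, which encodes H3.3, was the highest at 1091 and 1062 RPKM, a log2 ratio of -0.04, and H2afz, which encodes H2A.Z, followed at 371 and 366 RPKM, a log2 ratio of -0.02. Among the 11, the largest fall was in Cenpa, the centromeric H3, at 65.8 and 52.8 RPKM (log2 ratio -0.31). The only rise among them was in H1f0, at 192 and 202 RPKM (0.07). The clustered members made up 0.397% and 0.596% of the RPKM of H3 genes of both kinds, 14.0% and 10.3% of H2A genes, and 6.69% and 6.24% of H1 genes. These are shares of the deposited RPKM and need not be those of histone mRNA in the testis. A selection by poly(A) tail, which is not given either way, would lower the clustered shares, and its part was not tested. The 8 clustered genes without a value, most of them of class H3, are not in these sums.

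The genes listed for histone mRNA were split in direction. The list of 30 genes covers histone gene transcription, 3′ end formation and the turnover of histone mRNA (Eri1, Tut4, Tut7 and Upf1). Of them 28 had a mean of at least 1 RPKM, 15 lower and 13 higher. Their median log2 ratio was -0.02, and 0 were past 1.5-fold, beside 1.69% lower and 1.57% higher among all genes tested. Slbp, whose product binds the stem-loop, had 165 and 129 RPKM, a log2 ratio of -0.35 with a counting interval from -0.43 to -0.28. The largest fall was in Ccne1, a cyclin of the G1 to S transition, at 17.0 and 12.2 RPKM (-0.45), and the largest rise in Npat, the coactivator of histone genes, at 23.7 and 27.5 RPKM (0.20). The highest in level were Snrpg, at 277 and 253 RPKM, and Snrpe, at 232 and 233 RPKM, Sm proteins that U7 shares with the spliceosomal snRNPs.

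S-phase genes gave a direction unlike that of most clustered members with a mean of at least 1 RPKM. All 20 with a mean of at least 1 RPKM were lower, with a median log2 ratio of -0.30 and 0 past 1.5-fold, among them Pcna at 185 and 142 RPKM and Mcm7 at 188 and 134 RPKM. Of the 16 clustered members over the same filter, 11 were higher, beside 53.7% of all genes tested. The counting interval lay above 0 in only 4 of all members. The median log2 ratio was -0.12 for the 4 members with a mean of at least 5 RPKM, and 0.012 over all 59 without a filter. Hist1h2ap was lower like the S-phase genes and the germ cell markers. The lists hold other genes at other depths, and the difference between them was not tested.

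**Figure D4:**
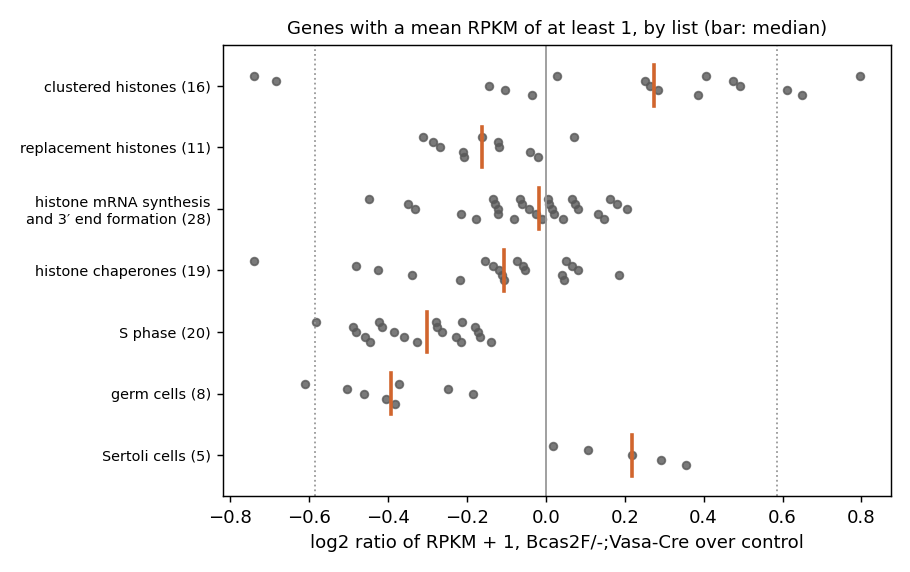
Log2 ratio of RPKM + 1 for each gene with a mean of at least 1 RPKM, by list, with the number of genes in parentheses, an orange bar at the median and dotted lines at 1.5-fold. The medians were 0.28 for clustered histones, -0.16 for replacement histones, -0.02 for genes of histone mRNA synthesis and 3′ end formation, -0.11 for histone chaperones, -0.30 for S-phase genes, -0.39 for germ cell markers and 0.22 for Sertoli cell markers. The list labelled histone mRNA synthesis and 3′ end formation also holds genes of histone mRNA turnover.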

How the data were processed

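RNA-seq libraries were made from RNA of whole P9 testes, 1 per genotype, and sequenced in paired ends. Total RNA was the starting material and the study's text speaks of mRNA, without naming the selection. The authors aligned the reads with TopHat2 2.0.9 to mm10 (version and build per the submitters' processing notes), made counts per gene by HTSeq, and the deposited unit is RPKM. Their annotation, gene lengths, strand setting and handling of reads that match several genes are not given in the sources used here.

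Entries were matched by Ensembl identifier to GENCODE M21, and the members and gene lists were chosen with earlier results of these data known. Log2 ratios used RPKM + 1 and a mean of at least 1 RPKM. Whole reads were recovered from the steps of the values within a tolerance of 0.01 reads, with library sizes from single-transcript genes, of which 79.8% of 7737 were whole at the annotated length. Other genes took the nearest length that gave whole reads. Intervals are 95% Clopper-Pearson bounds on the mutant library's part of a gene's reads. Near-identical copies (at least 95% identity over 250 bases) were found with BLAST 2.17.0, and stem-loops, motifs and A runs with Python 3.11.15, numpy 2.4.6, pandas 2.3.3 and scipy 1.17.1. Library sizes, read recovery, ratios and intervals were tested on simulated data, while the searches for copies, stem-loops, motifs and A runs were not. For read recovery, a pass was required only at the annotated length.

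The text names the members past 1.5-fold, the 2 highest of each class, the largest fall and rise of each class among members with a mean of at least 1 RPKM, testis-specific members, members at 0, and, for the lists of histone mRNA genes and replacement histones, the extremes and the 2 highest. Other members and list genes were named after their values were seen. No test was made between genotypes, because each had 1 library.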

Additional observations from a re-analysis of the deposited data

How the results depend on the processing

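With 1 library per genotype, no replicate could be left out, and depth limits members under 1 RPKM, which had few reads. No paired analysis was possible because there was 1 library per genotype and no test. Of 52 values under other settings, 31 stayed within 1.5 times the count or within the counting error. The count of members past 1.5-fold lower, 2, was 1 with a mean of at least 5 RPKM, 1 with at least 30 reads, 0 among members without a near-identical copy, and 0 without Hist1h2ap and Hist1h2ao, an alternative chosen after seeing the data. The count of members past 1.5-fold higher, 3, was 5 with a pseudocount of 0.1, 6 with 0.01, 5 with RPKM rescaled to a sum of 1000000, 5 without a filter and 0 with a mean of at least 5 RPKM. The median log2 ratio of members, 0.28, was 0.43 and 0.44 with pseudocounts of 0.1 and 0.01, 0.012 without a filter, -0.12 with a mean of at least 5 RPKM, and 0.39 both without near-identical copies and with at least 30 reads. The summed log2 ratio of H2A, -0.59, turned to 0.14 without its highest member, Hist1h2ap, where the interval of the read ratio held 0. It was 0.36 over the 3 members without near-identical copies and -0.36 as a median. That of H1, -0.06, was 0.31 without Hist1h1c and 0.17 as a median, and that of H2B, 0.17, was 0.40 without Hist1h2bc.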

Other observations

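Histone chaperones carry histones to and from DNA. Of 19 listed, 13 were lower and 6 higher in the Bcas2F/-;Vasa-Cre library, with a median log2 ratio of -0.11. Among all genes tested 53.7% were higher at any size, and 1.69% were past 1.5-fold lower. Asf1b, the form of the H3-H4 chaperone found in dividing cells, was the 1 past 1.5-fold, at 50.2 and 29.6 RPKM from 989 and 567 reads, with -0.74 as its log2 ratio. Its relative Asf1a had 25.3 and 26.2 RPKM. Tonsl and Hjurp, which carry H3-H4 behind the replication fork and CENP-A, had 30.7 and 21.7 RPKM and 103 and 76.4 RPKM. Nasp, another H3-H4 chaperone with a form known from testis, had 223 and 176 RPKM. Hira and Daxx, chaperones of H3.3, had 37.8 and 40.1 RPKM and 54.5 and 56.2 RPKM.

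Of the 3 pseudogenes with a Hist symbol, Hist1h2al, a processed pseudogene on chromosome 13 from 51202727 to 51203065, outside the Hist1 cluster, had 9.03 and 4.93 RPKM from 68 and 36 reads, more than every H2A member but Hist1h2ap. Its log2 RPKM ratio was -0.87, with a counting interval from -1.50 to -0.27. Its transcript model is 99.4% identical over 339 bases, with 2 mismatches, to those of Hist2h2aa1 and Hist2h2aa2, both listed at 0. The match to Hist1h2ap is less close, at 92.6% with 25 mismatches. Whether reads of Hist1h2al came from Hist2h2aa1 or Hist2h2aa2 cannot be told here, and a part of reads from Hist1h2ap was not tested. Hist1h2aj had 0.690 and 0.426 RPKM, and Hist3h2bb-ps was listed at 0.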
